A study of Mus musculus with 15 samples.

Results

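Transferrin and 9 other genes of iron and heme handling were followed in retinas of cone channel mutants. The group was listed by gene symbol and holds Trf, Tfrc, Slc11a2, Fth1, Ftl1, Slc40a1, Cp, Heph, Flvcr1 and Flvcr2. Every probe whose platform annotation carries a listed symbol was taken, which gave 16 of the 25697 probes on the array and 9 of the 10 genes, out of 16593 genes with a named probe. Flvcr1 has no probe under that symbol and was not analysed here. Trf was chosen by its measured values on these same arrays, whose means moved in opposite directions in the 2 double knockouts, so they are given as a description, with no test. The other members were listed for their function, with earlier results of these data known.

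Gene expression was measured on an Illumina mouse beadchip in 15 arrays, 1 per mouse, with both retinas of a mouse combined. All mice were taken at postnatal day 30 on a C57bl/6 background, and all of them lacked Nrl, the transcription factor that sends photoreceptor precursors to the rod fate, so that every retina was rich in cone-like cells and lacked rods. The control was Nrl-/- (5 mice), and the other groups were CNGA3-/-/Nrl-/- (5 mice) and CNGB3-/-/Nrl-/- (5 mice). The latter are named below as Cnga3 double knockout and Cngb3 double knockout. Cnga3 and Cngb3 together form the cation channel that cones open and close in response to light, and the study asked how their loss changes expression in a retina of cones. Both double knockouts were compared with the same 5 control arrays, so those comparisons are not independent of each other, and no group with rods or without any mutation was part of the design.

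Iron travels in blood and in the extracellular space bound to transferrin, enters cells with the transferrin receptor, crosses the endosomal membrane through Slc11a2, and is stored inside ferritin shells. It leaves cells through ferroportin (Slc40a1) with the help of the ferroxidases ceruloplasmin (Cp) and hephaestin (Heph). The retina makes its own transferrin, above all in the pigment epithelium, and vision draws on iron in, among others, the isomerase of the pigment epithelium that renews the visual chromophore and the desaturases that build fatty acids for photoreceptor membranes. Flvcr1 and Flvcr2 are related membrane transporters first described for heme.

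Values are normalized log2 intensities, where a step of 1 is a doubling, and levels of different probes are not set against each other. A probe was kept for testing when it was detected (detection p under 0.01 against the negative controls of its array) on at least 5 arrays, and was called at an adjusted p under 0.05 in limma's moderated test. Of the 16 member probes 11 were kept, covering 8 genes. The 5 others were the single Ftl1 probe, 3 of 5 Heph probes and 1 of 2 Flvcr2 probes. A bulk retina does not tell fewer cells of a type from less RNA per cell.

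As a check of the labels, the Cngb3 probe ran from 6.68 to 7.24 in the Cngb3 double knockout, against 7.32 to 10.05 in the control and 8.33 to 9.56 in the Cnga3 double knockout. Both Cnga3 probes had overlapping ranges in all 3 groups, and no source used here says whether they lie in the deleted stretch, so they check nothing. The single Nrl probe was detected on 0 of 15 arrays. Cone markers, with 14 of 16 kept and Cnga3 and Cngb3 among them, had a mean log2 level of 12.10 to 12.36 in the control, 11.69 to 12.08 in the Cnga3 and 11.77 to 11.92 in the Cngb3 double knockout. Every double-knockout array thus lay below every control array in this mean. The median log2 fold change of the 14 markers was -0.06 in the Cnga3 and -0.18 in the Cngb3 comparison, beside -0.03 and -0.01 over all genes. Against the control 1 was called higher and 2 lower in the Cnga3 double knockout, where 3.46% and 3.83% of all genes were. In the Cngb3 double knockout 1 was called higher and 3 lower, where 1.23% and 1.28% were. The part of cone markers in these comparisons was not tested. Detected probes ranged from 10302 to 13763 per array, the fewest in control replicate 3. Control replicates 1 and 3 stood apart in a list of lens and front-of-eye markers, with mean levels of 5.42 and 7.33 where the other 13 arrays lay between 10.04 and 11.99.

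Transferrin is the carrier of iron in plasma and in the fluid around the photoreceptors. In the control retinas Trf read 11.24, 10.35, 10.92, 11.08 and 11.004 in replicates 1 to 5 (10.92 ± 0.34, SD, n = 5). In the Cnga3 double knockout it read 9.85, 10.42, 10.37, 10.34 and 10.25 (10.24 ± 0.23, n = 5). In the Cngb3 double knockout it read 11.96, 11.84, 12.02, 11.65 and 11.09 (11.71 ± 0.37, n = 5). All Cnga3 arrays lay below all Cngb3 arrays, while the control lay between them and overlapped each. Cnga3 replicates 2 and 3 read above the lowest control array, and Cngb3 replicate 5 read below the highest control array. The mean was 1.60-fold lower in the Cnga3 double knockout than in the control (log2 fold change -0.68, SE 0.193) and 1.73-fold higher in the Cngb3 double knockout (0.79, SE 0.193), and the 2 double knockouts were 2.76-fold apart (-1.47, SE 0.193). These are the values that chose the gene.

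Flvcr2 is a transporter of the same family as the heme exporter Flvcr1. It was first described as a heme importer and is now known as a choline carrier of the brain's blood vessels. Its RefSeq promoter window is shown because Flvcr2 is the member other than Trf that was called, and because the window holds a match to the palindrome bound by basic helix-loop-helix factors of the Usf and Mitf kind. The 250 bases before its annotated start lie at chr12:85746289-85746538 on the plus strand of GRCm38.p6, and capitals mark the match.
Flvcr2: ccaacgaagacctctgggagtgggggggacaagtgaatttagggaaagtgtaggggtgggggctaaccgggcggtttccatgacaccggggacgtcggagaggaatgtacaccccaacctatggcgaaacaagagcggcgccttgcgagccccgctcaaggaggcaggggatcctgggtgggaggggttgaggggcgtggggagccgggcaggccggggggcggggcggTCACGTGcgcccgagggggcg
The match TCACGTG begins 21 bases before the annotated start. Searched on both strands, TCACGTG stands in 3.13% and the shorter CACGTG, which it contains, in 6.02% of 32851 promoter windows of 250 bases, and the core ACGTG, which lies inside both, in 16.6%. There were 9 windows for 6 of the 10 members, Flvcr1 included. Trf, Heph, Slc40a1 and Slc11a2 had no window and were not searched. TCACGTG and CACGTG stand in 1 of these 9 windows, that of Flvcr2, and ACGTG in those of Flvcr2 and Tfrc. A match is a string of letters and no measure of binding.

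Flvcr2 differed between the 2 double knockouts. It read 6.87, 6.37, 7.77, 6.54 and 6.07 in control replicates 1 to 5 (6.73 ± 0.65, n = 5). It read 5.80, 6.17, 5.96, 6.28 and 5.34 in the Cnga3 double knockout (5.91 ± 0.37, n = 5). It read 7.21, 7.68, 7.54, 7.19 and 6.70 in the Cngb3 double knockout (7.26 ± 0.38, n = 5). Every Cnga3 array lay below every Cngb3 array, and the control overlapped both.

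Flvcr2 was 2.56-fold lower in the Cnga3 than in the Cngb3 double knockout (log2 fold change -1.36, SE 0.275, 95% interval -1.94 to -0.78, limma adjusted p = 0.04215), a comparison in which 0.405% of all kept probes were called and 0.222% were called lower. Against the control it was 0.82 lower on the log2 scale in the Cnga3 double knockout (log2 fold change -0.82, interval -1.40 to -0.24, limma adjusted p = 0.07475) and 0.54 higher in the Cngb3 double knockout (interval -0.04 to 1.12, limma adjusted p = 0.2813), and neither difference was called. The Cnga3 difference was called without control replicate 5 (-0.98, limma adjusted p = 0.04628), and the Cngb3 difference was called without both control replicates 1 and 3 (0.94, limma adjusted p = 0.02797), where the Cnga3 difference was -0.42 (limma adjusted p = 0.2694). The call between the double knockouts was lost in 10 of the 15 fits that each left out 1 array. The adjusted p was then 0.05148, 0.05539 and 0.05054 without control replicates 1, 2 and 4, 0.07786, 0.1007 and 0.1173 without Cnga3 replicates 2, 3 and 5, and 0.1012, 0.1325, 0.1233 and 0.08681 without Cngb3 replicates 1 to 4. The log2 fold change stayed between -1.50 and -1.21 in all 15. The second Flvcr2 probe was detected on 0 of 15 arrays.

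**Figure D1:**
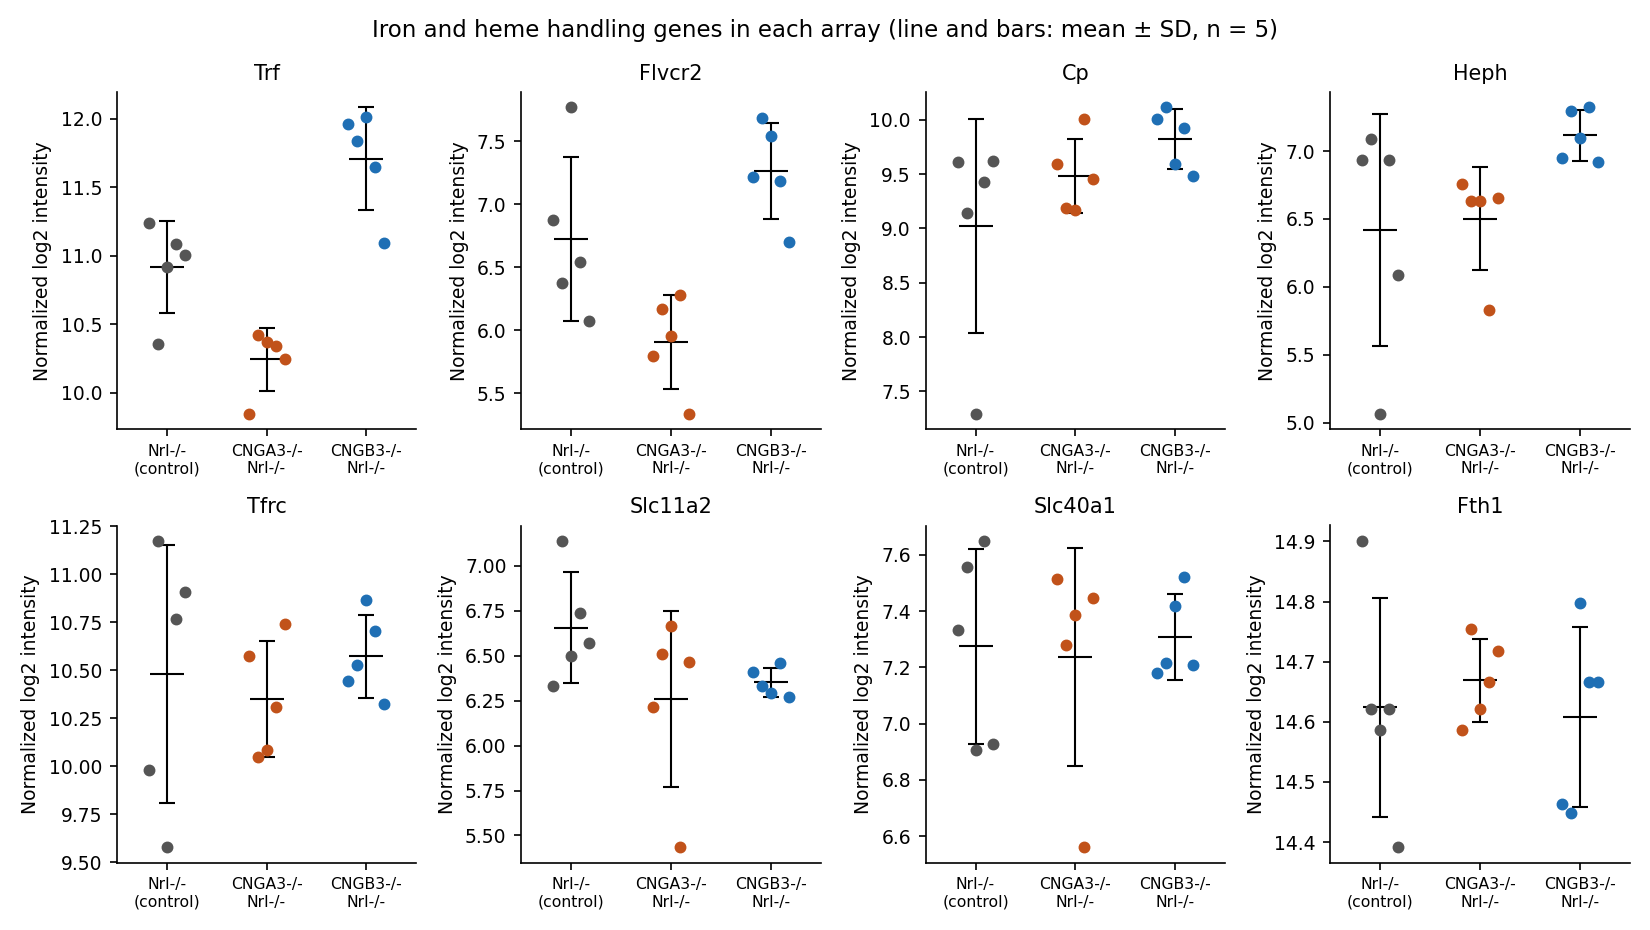
Normalized log2 intensity (vertical axis, own scale in each panel) of 8 genes on every array, with 1 point per mouse and the mean ± SD of 5 mice per group. The brightest kept probe of each gene is shown. Trf and Flvcr2 are lowest in the CNGA3-/-/Nrl-/- group and highest in the CNGB3-/-/Nrl-/- group, with no overlap between these groups. Control replicate 3 is the low point of Cp (7.29) and Heph (5.06).

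Markers of the pigment epithelium, the cell layer behind the photoreceptors, were like Trf and Flvcr2 lower on average in the Cnga3 than in the Cngb3 double knockout. Of 20 listed markers 15 were kept, and Lrat, Tyr, Mitf and Slc6a20a had probes that were not. Rlbp1 and Trpm1 on this list are also made in the neural retina. Their mean log2 level was 9.28, 8.90, 9.18, 9.21 and 8.81 in control replicates 1 to 5. It was 7.69, 8.12, 8.10, 9.25 and 8.23 in the Cnga3 double knockout and 9.45, 9.40, 9.41, 9.08 and 8.79 in the Cngb3 double knockout. All Cnga3 arrays except replicate 4 lay below all arrays of the other groups.

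Between the double knockouts 5 of the 15 markers were called lower in the Cnga3 group and 0 were called higher, with a median log2 difference of -1.16 over the list. They were Rgr (-1.66, adjusted p = 0.04461), Rdh5 (-1.44, adjusted p = 0.04426), Ttr (-1.47, adjusted p = 0.03947), Stra6 (-1.34, adjusted p = 0.04426) and Krt18 (-1.16, adjusted p = 0.001359), all by limma. Rgr and Rdh5 serve the recycling of retinal, Stra6 takes up retinol, Ttr carries thyroid hormone and retinol-binding protein, and Krt18 is an epithelial keratin. Over all genes, at 1 probe per gene, 0.242% were called lower in that comparison. Trpm1 (0.06) and Ctsd (0.12) had higher means in the Cnga3 group without a call, and the other kept markers had lower means. Against the control 3 of the 15 were called lower in the Cnga3 group (Rdh5, Slc45a2 and Krt18, median over the list -0.85), where 3.83% of all genes were. In the Cngb3 group 0 were called (median 0.17), and 3 of the 15 had an unadjusted p under 0.05 in limma. The share of all genes under that unadjusted threshold was not computed. Over all genes 1.23% were called higher and 1.28% lower there. Trf was 0.79 higher in that comparison. Pmel (-0.46), Mlana (-0.59), Slc45a2 (-0.29) and Ctsd (-0.165) had lower means than in the control. The other kept markers had higher means, the largest rises being those of Ttr (0.82), Stra6 (0.65) and Rgr (0.52).

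With the mean marker level as a covariate, the Trf difference from the control was -0.30 in the Cnga3 and 0.72 in the Cngb3 double knockout, and the 2 double knockouts were -1.02 apart. The Flvcr2 difference between the double knockouts was then -0.78 and no longer called (limma adjusted p = 0.2008, over the 28 alternatives from 0.0008449 to 0.2008). In Cnga3 replicate 4 the markers stood at 9.25, within the control range. Trf read 10.343 on that array, within the range of its own group and just below the lowest control array (10.355). Flvcr2 read 6.28 there, the highest of its group and within the control range (6.07 to 7.77). Other than these values, the part of pigment epithelium content in the Trf and Flvcr2 results was not tested. The mean level of 15 kept vascular markers of 20 was 6.83 to 7.42 in the control, 6.99 to 7.30 in the Cnga3 and 7.22 to 7.44 in the Cngb3 double knockout, so it too was lower on average in the Cnga3 than in the Cngb3 group, with overlap. The part of vascular content in the Flvcr2 result was not tested.

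**Figure D2:**
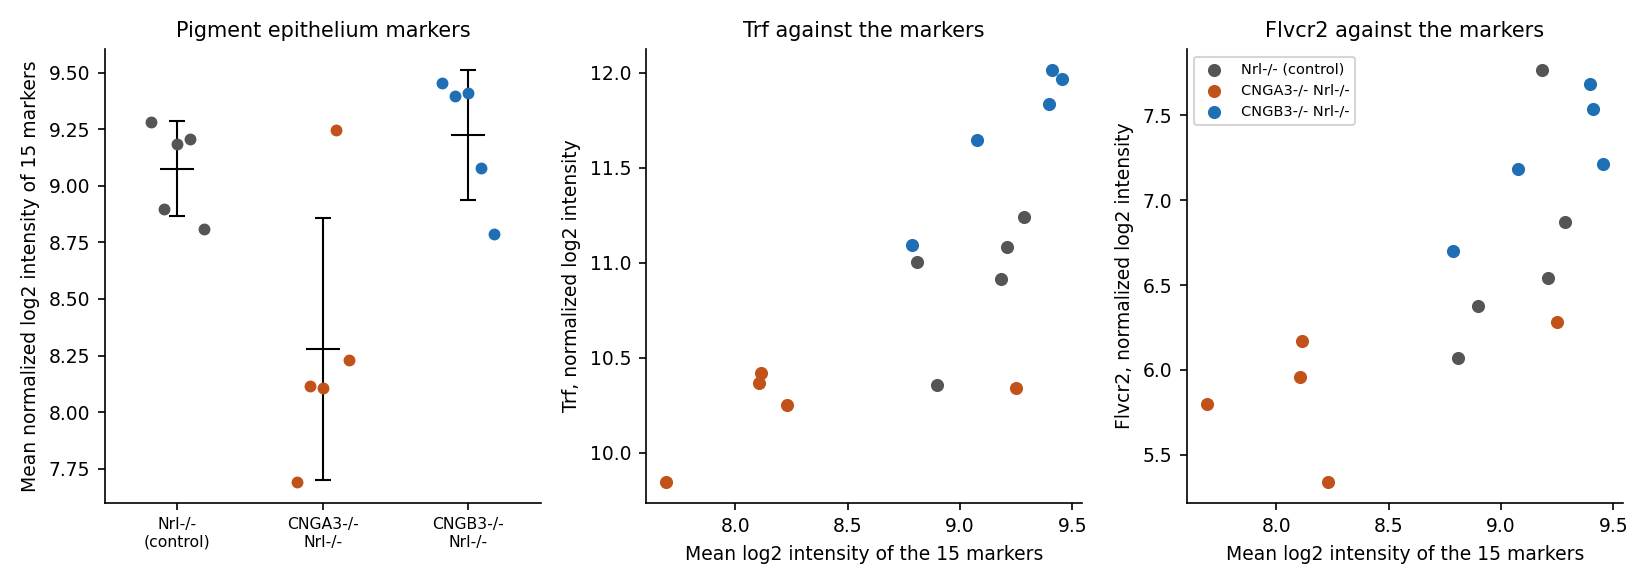
Left, mean normalized log2 intensity of 15 pigment epithelium markers per array with the mean ± SD of 5 mice per group. Middle and right, Trf and Flvcr2 (vertical axes, normalized log2 intensity) against that mean on the same arrays, 1 point per mouse. One CNGA3-/-/Nrl-/- array, replicate 4, sits at the marker level of the control (9.25) with a Trf value of 10.343, beside 10.355 in the lowest control array.

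The genes whose values ran most like Trf over the 15 arrays were found by Pearson correlation, at 1 probe per gene, as a description. They were Oca2 (r = 0.89, Spearman's rho = 0.82), Slc7a3 (0.84 and 0.84), Col6a2 (0.83 and 0.87), Krt18 (0.83 and 0.73) and Dnaic1 (0.83 and 0.65). The arrays fall into groups that differ in Trf, so much of each r is the group means. After subtraction of the group means r was 0.71 for Oca2, 0.07 for Slc7a3, 0.44 for Col6a2, 0.45 for Krt18 and 0.44 for Dnaic1. Oca2 encodes a melanosome channel protein of pigment cells, and Krt18 is on the pigment epithelium list above. Flvcr2 ranked 8, with r = 0.81 and 0.41 after the group means were removed.

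Among the 10 kept probes of the 7 members other than Trf, 0 were called in the Cnga3 double knockout against the control, where 8.04% of all kept probes were. Against the control 0 were called in the Cngb3 double knockout, where 2.68% of all kept probes were. Between the double knockouts 1 was called lower, the Flvcr2 probe, read against the shares given above. At an unadjusted p under 0.05 limma gave 1 of the 10 probes in the Cnga3, 3 in the Cngb3 comparison and 2 between the double knockouts. The share of all kept probes under that unadjusted threshold was not computed, so these counts cannot be set against it. The groups did not overlap for 0 of the 10 probes in either comparison with the control (6.74% of kept probes for Cnga3, 6.69% for Cngb3), and for 2 of the 10, Flvcr2 and a Heph probe, between the double knockouts (4.93%). The median log2 fold change of the 10 probes was -0.01, 0.10 and -0.23 in the 3 comparisons, beside -0.0057, -0.0025 and -0.0056 over all kept probes.

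**Figure D3:**
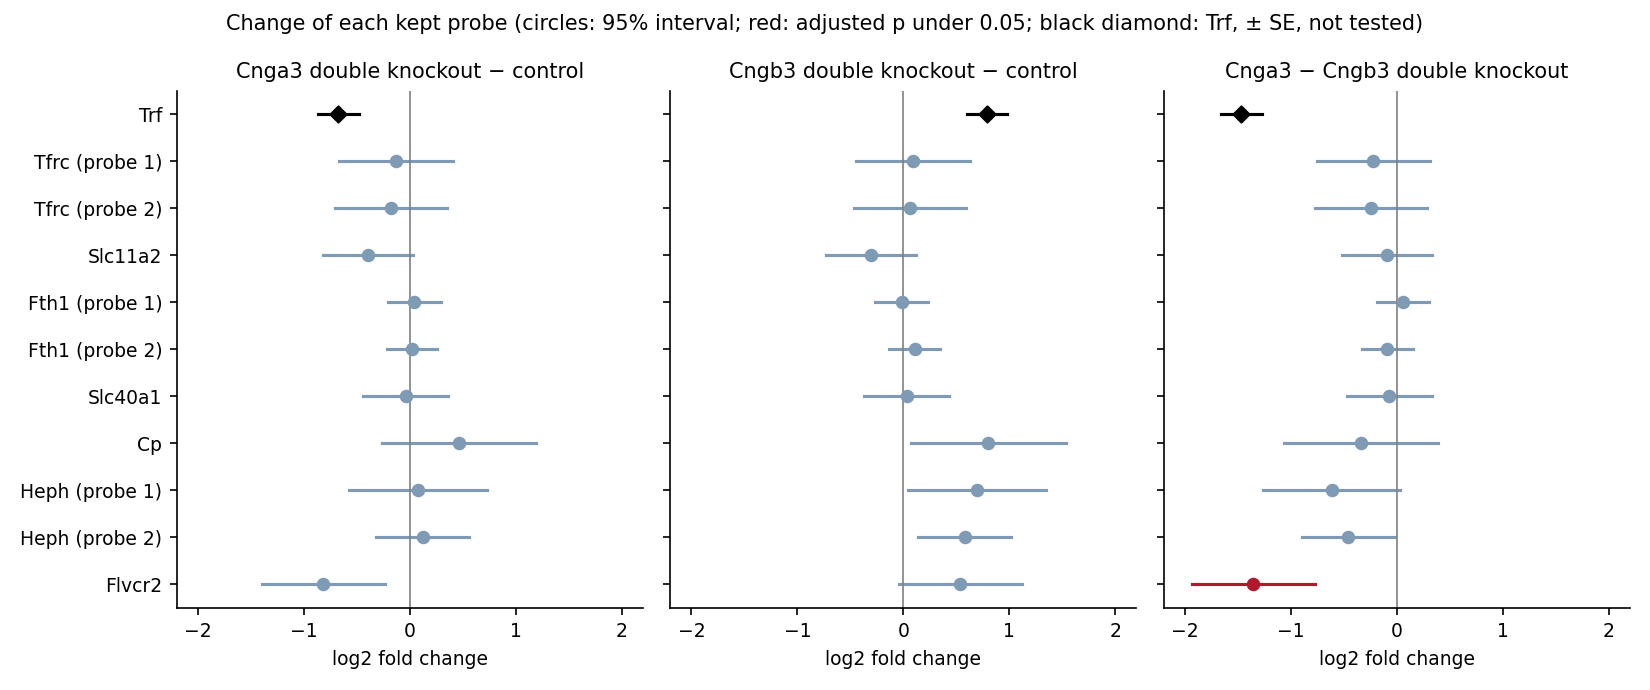
Log2 fold change (horizontal axis) of each kept member probe in the 3 comparisons, with the 95% interval as a line. Trf is drawn as a black diamond with its SE and was not tested. The single red point is Flvcr2 between the double knockouts (-1.36). The intervals of Cp and of both Heph probes lie above 0 in the Cngb3 comparison without passing the adjusted threshold.

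The receptor that takes up the transferrin and iron complex, Tfrc, had 2 kept probes. The brighter probe read 9.98, 11.17, 9.58, 10.77 and 10.91 in control replicates 1 to 5 (10.48 ± 0.67, n = 5). It read 10.58, 10.05, 10.09, 10.31 and 10.74 in the Cnga3 double knockout (10.35 ± 0.30) and 10.44, 10.53, 10.87, 10.71 and 10.32 in the Cngb3 double knockout (10.57 ± 0.22). The control spanned both other groups, with its replicates 1 and 3 lowest. The log2 fold change was -0.13 in the Cnga3 (interval -0.67 to 0.41, limma adjusted p = 0.7787) and 0.09 in the Cngb3 double knockout (interval -0.44 to 0.63, limma adjusted p = 0.8737). The second probe gave -0.18 and 0.07.

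The same control replicates, 1 and 3, are those with few lens markers. Without both of them Tfrc was lower in the Cnga3 double knockout by both probes (log2 fold change -0.60, limma adjusted p = 0.0499, and -0.65, limma adjusted p = 0.02881), and the Cngb3 difference changed sign without being called (-0.38 and -0.40). Leaving out single arrays kept the brighter probe's Cnga3 difference between -0.36 and 0.04, with no call.

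Slc11a2, the transporter that carries iron out of the endosome together with protons, read 6.33, 7.14, 6.50, 6.74 and 6.57 in the control (6.66 ± 0.31, n = 5). It read 6.21, 6.51, 6.67, 5.43 and 6.46 in the Cnga3 double knockout (6.26 ± 0.49) and 6.41, 6.33, 6.29, 6.46 and 6.27 in the Cngb3 double knockout (6.35 ± 0.080). Cnga3 replicate 4 was the lowest array, and all groups overlapped. The log2 fold change against the control was -0.40 (interval -0.82 to 0.03, limma adjusted p = 0.2214) and -0.30 (interval -0.73 to 0.12, limma adjusted p = 0.4126). Without Cnga3 replicate 4 the Cnga3 difference was -0.19 (limma adjusted p = 0.4359), and without control replicate 2 the Cngb3 difference was -0.18 (limma adjusted p = 0.6489). Cnga3 replicate 4 is the array of its group with pigment epithelium markers in the control range. With the level of these markers as a covariate the Cnga3 difference was -0.84 and passed the threshold (limma adjusted p = 0.02581).

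Ferritin stores iron in a shell of heavy and light chains, and the heavy chain Fth1 oxidizes the iron as it enters. Both Fth1 probes were bright and steady. The brighter read 14.62 ± 0.18 in the control, 14.67 ± 0.068 in the Cnga3 and 14.61 ± 0.15 in the Cngb3 double knockout (n = 5 each), and the full range over the 15 arrays was 14.39 to 14.90. Its log2 fold change was 0.04 (interval -0.20 to 0.29) and -0.02 (interval -0.26 to 0.23) against the control. The second probe gave 0.02 and 0.11 (limma adjusted p = 0.9295 and 0.6249). The intervals of both probes exclude a change of 0.35 or more on the log2 scale in either double knockout. The light chain Ftl1 has 1 probe, detected on 0 of 15 arrays, so its level is not known from these data.

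The exporter ferroportin, Slc40a1, read 7.33, 7.56, 6.91, 7.65 and 6.93 in the control (7.27 ± 0.35, n = 5). It read 7.51, 7.28, 7.39, 6.56 and 7.45 in the Cnga3 double knockout (7.24 ± 0.39) and 7.18, 7.21, 7.42, 7.52 and 7.21 in the Cngb3 double knockout (7.31 ± 0.15). The groups lay on top of each other, with Cnga3 replicate 4 the lowest array. Its differences from the control were -0.04 (interval -0.44 to 0.36) and 0.03 (interval -0.37 to 0.43), and -0.07 between the double knockouts (limma adjusted p = 0.904).

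Ceruloplasmin, the copper ferroxidase that loads exported iron onto transferrin and is made by Mueller glia in the retina, read 9.61, 9.15, 7.29, 9.43 and 9.62 in the control (9.02 ± 0.98, n = 5). It read 9.59, 9.19, 9.17, 10.004 and 9.46 in the Cnga3 double knockout (9.48 ± 0.34) and 10.01, 10.12, 9.59, 9.92 and 9.48 in the Cngb3 double knockout (9.82 ± 0.27). Control replicate 3 stood far below the next control array. On the log2 scale the mean was higher by 0.46 in the Cnga3 (limma adjusted p = 0.4132) and 0.80 in the Cngb3 double knockout (interval 0.08 to 1.53, unadjusted p = 0.0325 and adjusted p = 0.2008 by limma). Without control replicate 3 these were 0.03 and 0.37, so that array sets most of either difference.

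Hephaestin is the membrane-bound partner of ceruloplasmin. Its brighter kept probe read 6.93, 7.09, 5.06, 6.93 and 6.09 in the control (6.42 ± 0.85), where it was detected on 4 of 5 arrays. It read 6.76, 6.63, 6.63, 5.83 and 6.65 in the Cnga3 double knockout (6.50 ± 0.38) and 6.95, 7.30, 7.10, 7.32 and 6.92 in the Cngb3 double knockout (7.12 ± 0.19, n = 5 each). All Cngb3 arrays lay above all Cnga3 arrays, and control replicate 3 and Cnga3 replicate 4 were low. The log2 fold change was 0.08 in the Cnga3 (limma adjusted p = 0.8942) and 0.70 in the Cngb3 double knockout (interval 0.05 to 1.35, limma adjusted p = 0.214), and -0.62 between the double knockouts (interval -1.27 to 0.03, limma adjusted p = 0.3669). Without control replicate 3 the Cngb3 difference was 0.36 (limma adjusted p = 0.3965) and the Cnga3 difference turned to -0.26 (limma adjusted p = 0.4712).

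The second Heph probe read 6.04, 6.00, 5.85, 6.19 and 5.44 in the control, 6.01, 6.19, 6.30, 5.36 and 6.27 in the Cnga3 and 6.53, 6.71, 6.45, 6.84 and 5.89 in the Cngb3 double knockout. It gave 0.12 in the Cnga3 and 0.58 in the Cngb3 comparison (interval 0.14 to 1.02, unadjusted p = 0.01247 and adjusted p = 0.1306 by limma). Without control replicate 3 this probe gave 0.57 in the Cngb3 comparison. The higher Cngb3 means of Cp and of the brighter Heph probe thus rest in large part on that array, and none of these differences passed the adjusted threshold. Mueller glia markers ran from 9.47 to 9.99 in the control, 9.89 to 10.09 in the Cnga3 and 9.93 to 10.03 in the Cngb3 double knockout (mean log2 level of 18 kept markers of 20), and their part in the ferroxidase values was not tested.

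Beyond the members, 113 other genes of iron and heme biology were listed in 7 groups by function, of which 94 have a probe and 72 a kept probe. These lists were chosen with earlier results of these data known, so the shares called are a description. In these lists, rose and fell mean called higher and called lower at the adjusted threshold. Taking the brightest kept probe of each, 9 of the 72 (12.5%) rose and 1 fell in the Cnga3 double knockout against the control, where 3.46% of all genes rose and 3.83% fell. In the Cngb3 double knockout 2 of the 72 (2.78%) rose and 0 fell, where 1.23% of all genes rose and 1.28% fell. Ireb2, Epas1 and Ciao2a, which are among these calls, were detected on no control array. They passed the filter only through arrays of the double knockouts, so the shares depend in part on the filter. With detection required on all 15 arrays, 6 of 57 genes rose and 1 fell in the Cnga3 double knockout. In the Cngb3 double knockout 1 of 57 then rose. Counted in either direction, 7 and 1 of the 57 were called in that setting, beside 933 and 294 of 9552 kept probes. The share of all genes that rose was not computed there, so an excess of rising genes is not shown in that setting. Between the double knockouts 0 of the 72 were called, where 0.418% of all genes were, and 12 had an unadjusted p under 0.05 in limma. No share of all genes under that unadjusted threshold was computed to set beside it. The median log2 fold change of the 72 was -0.0038, -0.02 and 0.0061, beside -0.03, -0.01 and -0.03 over all genes.

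Of 13 kept genes that sense iron and oxygen or set the iron hormone, 4 (30.8%) rose in the Cnga3 and 2 (15.4%) in the Cngb3 double knockout, beside 3.46% and 1.23% of all genes. Ireb2 (called in both comparisons) and Epas1 (called in the Cnga3 comparison) passed the filter through double-knockout arrays alone. These shares therefore depend in part on the filter. Ireb2 encodes iron regulatory protein, which binds the messages of Tfrc, ferritin and ferroportin when iron is scarce. It read 5.16, 5.08, 4.74, 4.83 and 5.02 in the control, where it was detected on 0 of 5 arrays. It read 5.83, 5.70, 5.67, 6.06 and 5.70 in the Cnga3 and 6.07, 5.80, 5.86, 5.77 and 5.77 in the Cngb3 double knockout, detected on all 5 arrays of each. The double knockouts lay above every control array.

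The detection limit of the control arrays was taken as the higher, on each array, of the probe's own value and the lowest detected signal. Set against it, the mean of Ireb2 was at least 1.24-fold higher in the Cnga3 and at least 1.3-fold higher in the Cngb3 double knockout. These bounds carry no interval. The test of the measured means, without the limit, gave limma adjusted p = 0.001561 and 0.0007929. The double knockouts differed by -0.06 on the log2 scale (interval -0.32 to 0.20). Both calls held in all 15 fits that left out 1 array and in the other settings that could be run, with adjusted p up to 0.01797 and 0.02279. The size depended on the background correction, since the authors' log2 values, which have none, gave 0.23 and 0.25 where the values used here gave 0.83 and 0.89 (measured means, without the limit), so that the bounds hold for the background-corrected values only.

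Hif1a, the inducible subunit of the oxygen-sensing transcription factor, read 8.11, 7.96, 7.03, 8.36 and 7.56 in the control (7.80 ± 0.52, n = 5). It read 8.76, 9.01, 8.97, 9.20 and 9.06 in the Cnga3 (9.002 ± 0.16) and 9.02, 8.53, 8.74, 8.80 and 8.25 in the Cngb3 double knockout (8.67 ± 0.29). Every Cnga3 array exceeded every control array, and 1 Cngb3 array did not. It rose 2.29-fold in the Cnga3 double knockout (log2 fold change 1.20, SE 0.211, limma adjusted p = 0.004149), a call that held in all 15 fits without 1 array. It rose 1.82-fold in the Cngb3 double knockout (0.86, SE 0.211, limma adjusted p = 0.03726). The Cngb3 call ended in 10 of those 15 fits, without control replicates 2, 3 and 5, Cnga3 replicates 2, 3 and 5 and Cngb3 replicates 1 to 4, with adjusted p up to 0.1008. The double knockouts did not differ detectably (0.33, interval -0.11 to 0.78, limma adjusted p = 0.4859).

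Epas1, the related factor of the same pathway, was detected on 0 of 5 control, 5 of 5 Cnga3 and 3 of 5 Cngb3 arrays. Set against the detection limit its mean was at least 1.22-fold higher in the Cnga3 double knockout. The log2 difference of measured means was 0.84 (limma adjusted p = 0.0114), and 0.23 with the authors' log2 values. Its level in the Cngb3 double knockout, 5.39 ± 0.32 against 4.93 ± 0.25, was not called (limma adjusted p = 0.1572). Egln1, the hydroxylase that uses oxygen and iron to mark both factors for destruction, rose 1.56-fold in the Cnga3 double knockout (0.64, limma adjusted p = 0.04616, all but 1 Cnga3 array above all controls). That call ended in 12 of the 15 fits without 1 array, with adjusted p up to 0.1004, and held only without control replicate 3 and Cngb3 replicates 2 and 3. Its other 2 kept probes gave 0.36 (limma adjusted p = 0.2044) and 0.01 (limma adjusted p = 0.9734). Hif1a, Epas1 and Egln1 are known first for the response to oxygen, and Ireb2 for that to iron.

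**Figure D4:**
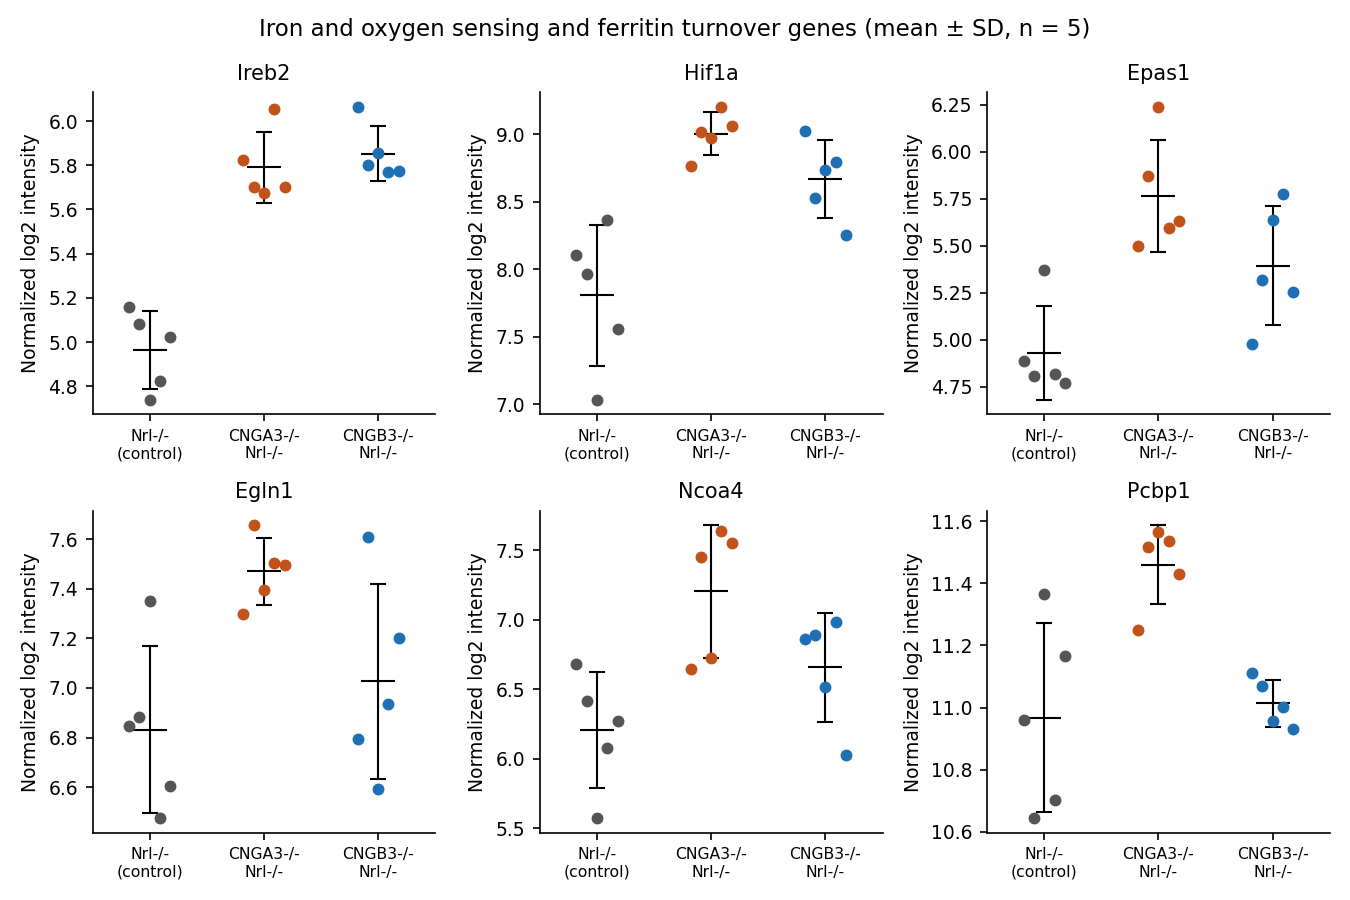
Normalized log2 intensity (vertical axis, own scale in each panel) of 4 sensing genes and 2 genes of ferritin loading and turnover on every array, with the mean ± SD of 5 mice per group. Ireb2 lies above all control arrays in both double knockouts. The other genes are highest on average in the CNGA3-/-/Nrl-/- group. Control values of Ireb2 and Epas1 were not above background.

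In the storage list 2 of 5 kept genes (40%) rose in the Cnga3 and 0 in the Cngb3 double knockout. Over all genes 3.46% and 1.23% rose in these comparisons. Ncoa4, the receptor that delivers ferritin to the lysosome for breakdown, rose 1.996-fold (log2 fold change 0.997, SE 0.247, limma adjusted p = 0.02256), from 6.21 ± 0.42 to 7.20 ± 0.48, and read 6.66 ± 0.39 in the Cngb3 double knockout (adjusted p = 0.3165 by limma). The Ncoa4 call ended without Cnga3 replicate 2 (adjusted p = 0.05672) and without Cnga3 replicate 5 (adjusted p = 0.06353). Pcbp1, the chaperone that hands iron to ferritin, rose 1.41-fold (0.49, limma adjusted p = 0.03767), and read 11.01 ± 0.075 in the Cngb3 double knockout against 10.97 ± 0.31 in the control. The Pcbp1 call ended in 8 of the 15 fits, without control replicates 1, 2 and 4, Cnga3 replicates 2, 3 and 5 and Cngb3 replicates 3 and 4 (adjusted p up to 0.09839). The differences between the double knockouts, 0.55 for Ncoa4 and 0.45 for Pcbp1, were not called (limma adjusted p = 0.3218 and 0.1534).

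In the uptake list 0 of 11 kept genes rose in the Cngb3 double knockout, beside 1.23% of all genes. In the Cnga3 double knockout 1 of the 11 (9.09%) rose, beside 3.46% of all genes. This was Snx3, a sorting nexin that returns the transferrin receptor from the endosome to the surface (0.64, 1.55-fold, limma adjusted p = 0.02096), with all Cnga3 arrays (9.86 to 10.43) above all control arrays (9.39 to 9.78). Its call ended without control replicate 2 (adjusted p = 0.05395) and Cnga3 replicates 2 (0.05142) and 5 (0.05951), and its dimmer probe gave 0.84 (limma adjusted p = 0.06189). In the export list 0 of 2 kept genes were called. Prnp and App, membrane proteins linked to iron reduction and ferroportin, had log2 fold changes of -0.18 and 0.32 in the Cnga3 and -0.24 and 0.22 in the Cngb3 double knockout, and limma gave each of them an unadjusted p under 0.05 in 1 comparison.

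In the heme synthesis list 1 of 13 kept genes (7.69%) rose and 1 fell in the Cnga3 double knockout, and 0 were called in the Cngb3 double knockout. Over all genes 3.46% rose and 3.83% fell in the Cnga3 comparison, and 1.23% rose and 1.28% fell in the Cngb3 comparison. Urod, the uroporphyrinogen decarboxylase in the middle of the pathway, fell from 11.36 ± 0.096 to 10.93 ± 0.089 (log2 fold change -0.43, SE 0.102, limma adjusted p = 0.01788), with all 5 Cnga3 arrays below all 5 control arrays, and read 11.21 ± 0.084 in the Cngb3 double knockout. The Urod call held in all 15 fits without 1 array and ended when arrays were centred on their medians in place of quantiles (-0.33, limma adjusted p = 0.1194, range over the alternatives from 0.002029 to 0.1194) and when only the control and Cnga3 arrays were fitted (-0.43, limma adjusted p = 0.08051). Pgrmc1, a heme-binding membrane protein that interacts with ferrochelatase, rose 1.56-fold (0.64, limma adjusted p = 0.02005) and read 0.48 higher than the control in the Cngb3 double knockout (limma adjusted p = 0.09838). Its Cnga3 call ended without control replicate 2 (adjusted p = 0.05485).

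Of 9 kept genes of heme transport and breakdown 0 were called in any comparison, with 1, 3 and 2 at an unadjusted p under 0.05 in limma. No share of all genes was computed at that unadjusted threshold. Blvra, which turns biliverdin into bilirubin, gave -0.26 and -0.19 against the control, and Slc48a1, a heme transporter of the lysosome, gave -0.19 and -0.04. In the assembly of iron-sulphur clusters 1 of 19 kept genes (5.26%) rose in the Cnga3 and 0 in the Cngb3 double knockout. Over all genes 3.46% and 1.23% rose, so the Cnga3 count is close to the share of all genes. Ciao2a, which serves the maturation of cytosolic iron-sulphur proteins, was detected on 0 of 5 control and 5 of 5 Cnga3 arrays. Its measured mean was 0.64 higher on the log2 scale (limma adjusted p = 0.03434). Set against the detection limit its mean was at least 1.06-fold higher, a bound without an interval. Ciao2a read 5.28 and 5.27 in Cnga3 replicates 2 and 5, beside 5.27 in control replicate 3. Its call ended without control replicates 1, 2 and 5 and Cnga3 replicates 1, 3 and 4, with adjusted p up to 0.09018.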

How the data were processed

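Per the labels, total RNA of both retinas of each mouse was biotin labelled with an Illumina kit, and the submitters' processing notes name GenomeStudio without a version. The deposited table holds a non-normalized intensity and, per the file headers, a detection p-value per probe and array. The authors' second table holds log2 values, which equal the log2 of quantile-normalized intensity within 5e-09, without background correction, and served as an alternative. The sources name no slide, scan date or batch.

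Intensities were processed with limma 3.58.1 (R 4.3.3) by neqc, with negative controls inferred from the detection p-values, an offset of 16, quantile normalization and log2. Probes detected on at least 5 arrays (p under 0.01) were kept, 13077 of 25697. All 15 arrays entered 1 model (12 residual and 4.73 prior degrees of freedom), two-sided, with Benjamini-Hochberg adjustment over all kept probes of a contrast. A p sets the difference of group means against the spread between single mice, estimated over all 3 groups and moderated across probes. The number of arrays limits its precision. Brackets give log2 fold changes with SE or 95% intervals. A probe detected on no array of a group was set against that group's detection limit, and its p is that of the measured means.

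Symbols came from the platform annotation (1 for 23978 probes, none for 1719), and promoters from RefSeq. Gene coordinates are left out because no genome build is named for the files. All member probes are named, up to 4 called genes per list by lowest p (else the 2 brightest), and the 5 genes most like Trf. Members and lists were chosen with earlier results of these data known. Replicate numbers are shared between groups, the labels do not say that they pair the mice, and the mice were treated as unpaired. Deviations of same-numbered arrays correlated from -0.11 to 0.28, over 0.1 in 4 of 15 pairs. The model code was tested on simulated data.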

Additional observations from a re-analysis of the deposited data

Results flagged for a closer look

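The log2 fold change of Trf between the Cnga3 and the Cngb3 double knockout was -1.47, with means on opposite sides of the control, and this difference was not tested since it chose the gene. The corresponding difference of Flvcr2 was -1.36, and it was tested in the fit across all probes (limma adjusted p = 0.04215).

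Of 75 groups of 5 arrays examined among the named probes, 7 held an array apart from the others, its gap to the nearest array being over 0.71 of the range of the group, and chance alone gives some. Control replicate 3 was apart in Cp, at 7.29 where the next control array read 9.15, and in Epas1, at 5.37 where the next read 4.89. Cnga3 replicate 4, the array of its group with pigment epithelium markers at the control level, was apart in Slc40a1 (6.56, the next 7.28), in the brighter Heph probe (5.83, the next 6.63) and in Blvra (9.99, the next 9.62). In the Cngb3 double knockout replicate 1 was apart in Ireb2 (6.07, the next 5.86) and replicate 3 in Prnp (14.34, the next 14.06). Another Heph probe, left out of the tests as too dim, was above background in Cngb3 replicate 2 alone, at 5.69, where the control arrays read 4.32 to 5.14.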

How the results depend on the processing

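Each value was recomputed under 28 alternatives, 15 of which left out 1 array, except that the kept Heph probes, Ireb2, Epas1, Ncoa4 and Ciao2a have no value where detection on all 15 arrays was required. No called value changed sign. The Trf differences kept their signs in all 28, but these refits use the arrays that chose Trf and are no independent support for them. With the pigment epithelium level as a covariate Trf came to -0.30 against the control in the Cnga3 double knockout and to -1.02 between the double knockouts. Leaving out single arrays gave -0.82 to -0.58, 0.65 to 0.95 and -1.62 to -1.37 for Trf in the 3 comparisons.

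Called member probes other than Trf numbered 0 against the control in the Cnga3 double knockout. They became 1 with the replicate number as a block (Flvcr2, -0.82, limma adjusted p = 0.03245), 1 with the pigment epithelium covariate (Slc11a2), 2 without control replicates 1 and 3 (both Tfrc probes), 1 without these and Cnga3 replicate 4 together (a Tfrc probe), and 0 to 1 when single arrays were left out (Flvcr2 without control replicate 5, -0.98, limma adjusted p = 0.04628). In the Cngb3 double knockout they became 1 without control replicates 1 and 3 (Flvcr2, 0.94, limma adjusted p = 0.02797), 2 without these and Cnga3 replicate 4 (Flvcr2 and Slc11a2), and 0 to 0 without single arrays. Between the double knockouts the 1 call became 0 with the authors' log2 values (Flvcr2 -0.61), with no filter on dim probes and with the pigment epithelium covariate, and 0 to 1 without single arrays. The setting without those 3 arrays together was chosen after seeing the data.

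Of the listed genes, 10 were called in the Cnga3 double knockout, 16 with array weights, 3 with only the 2 groups compared and 6 to 11 without single arrays, the fewest without control replicate 2 or Cnga3 replicates 2 or 5. In the Cngb3 double knockout the 2 calls became 1 with median centring, no filter, detection on all 15 arrays, only the 2 groups compared or the lens covariate, 7 without control replicates 1 and 3 and Cnga3 replicate 4, and 1 to 4 without single arrays. Between the double knockouts the 0 calls became 8 with array weights, 6 with the pigment epithelium covariate, 1 without those 3 arrays, and 0 to 0 without single arrays. The cause of these shifts was not tested, though fewer arrays or probes enter several of them. Over all kept probes, array weights gave 1880, 1054 and 1170 calls and 2-group fits 323, 230 and 72, beside 1051, 351 and 53. The replicate block gave 1107, 387 and 122. Of the 15 arrays 5 correlated best with an array of their own number, which does not decide whether the numbers pair the mice. The main fit did not treat them as pairs. Median centring moved the median of all probes to 0.11 in the Cnga3 comparison, and changes of listed genes there are to be read relative to it. No slide block could be fitted, since none is given. Dim probes (Ireb2, Epas1, Ciao2a, Heph) lie near background, where log2 differences depend on the background correction. With the authors' log2 values the Cnga3 differences of Ncoa4 and Ciao2a were 0.475 and 0.18, the latter no longer called (limma adjusted p = 0.08916).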
